A study of Rattus norvegicus with 9 samples.

Results

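Genes of xenobiotic and antioxidant defence were followed across bladder tumors, tissue next to the tumors and normal bladders of rats. The group of 41 genes was taken from a list of symbols and not by a cut on measured values. Earlier results of these data were known when it was chosen. It covers the enzymes that detoxify peroxides and superoxide, make and use glutathione, reduce thioredoxin, and process quinones, aldehydes, heme and foreign compounds, together with the regulators Nfe2l2 and Keap1. Of these, 40 genes were measured among the 14217 genes that have a probe set annotated to 1 symbol, and where a gene had several, the probe set with the highest mean over the 9 arrays stood for it. The gene left out is Prdx1, a peroxiredoxin, because its probe set is annotated to Prdx1 and Prdx1l1 together.

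Affymetrix arrays measured RNA in 9 tissue samples of female SD rats, labelled as 10 weeks old. The tumors came from 3 rats with bladder transitional cell carcinoma (BTCC), induced by N-methyl-N-nitrosourea (MNU), an alkylating carcinogen, which was instilled into the bladder at 20 mg/ml every week for 10 weeks. The tissue called adjacent normal was taken from the same 3 rats, so it had received the same MNU, and the normal bladders came from 3 other, normal rats, although the labels of all 9 samples carry the MNU text. No sham-instilled group is among the samples, so carcinogen exposure and tumor growth cannot be told apart in either comparison with normal bladder. Values are log2 signals from the MAS5 algorithm, in which 1 unit is a doubling, and a signal of 50 (5.64 on the log2 scale) was taken as the limit below which a probe set is dim. Of the 360 values of the 40 genes, 1 was under that limit.

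The transcription factor Nrf2, encoded by Nfe2l2, is held in the cytoplasm and sent for degradation by Keap1, and is released when oxidants or electrophiles modify Keap1. It then binds antioxidant response elements near genes that import cystine, build glutathione, reduce thioredoxin and conjugate foreign compounds. The aryl hydrocarbon receptor is a separate sensor that drives cytochrome P450 genes such as Cyp1a1 after exposure to planar aromatic compounds. The urothelium that lines the bladder is exposed to such compounds and their metabolites in urine.

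The antioxidant response element was looked for in the annotated promoters, because many of these genes are known Nrf2 targets. RefSeq promoter windows of the rat assembly GRCr8, from 250 bases before to 50 bases after each start site, were matched for 31 of the 40 genes. No window was matched for Gsr, Hmox1, Gstt1, Gstt2, Mgst2, Sod3, Prdx6, Cyp1a1 and Aldh3a1. Elements outside the windows were not searched, so a gene without a match may still have one elsewhere. The pattern TGACNNNGC, searched on both strands, was found in 8 of these 31 genes (25.8%), in 15.2% of the 11700 genes of the array with a window, and in 13.1% of all 27457 genes with a window. It occurred in 6 of the 15 genes with a window that were higher in tumors than in normal bladder and in 2 of the 16 others. The 6 were Gpx2, Gclm, Gstp1, Txnrd1, Sod2 and Nfe2l2, and the other 2 were Ephx1 and Prdx5. The split depends on the calls: that of Nfe2l2 in tumors was lost when certain single arrays were left out. Prdx5 was called higher in adjacent tissue but not in tumors. The split was not tested. Windows of 4 of these genes, which rose in tumors and belong to different families, are shown 5′ to 3′ along the gene, with the match in capitals. The Gpx2 window is chr6:101229984-101230283 on the minus strand, with the match at -13 to -5 from the start site, counted as position 0. The Gclm window is chr2:213031885-213032184 on the plus strand, with the match at -172 to -164. The Gstp1 window is chr1:210769656-210769955 on the minus strand, with the match at -61 to -53. Of the windows of Txnrd1, the one that held a match is chr7:22755855-22756154 on the minus strand, with the match at -78 to -70.
Gpx2: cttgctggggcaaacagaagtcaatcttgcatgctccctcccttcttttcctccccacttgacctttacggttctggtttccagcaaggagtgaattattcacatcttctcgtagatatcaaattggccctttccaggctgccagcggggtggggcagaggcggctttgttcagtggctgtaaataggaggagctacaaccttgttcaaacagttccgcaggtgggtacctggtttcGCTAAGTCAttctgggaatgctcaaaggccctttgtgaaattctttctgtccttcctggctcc
Gclm: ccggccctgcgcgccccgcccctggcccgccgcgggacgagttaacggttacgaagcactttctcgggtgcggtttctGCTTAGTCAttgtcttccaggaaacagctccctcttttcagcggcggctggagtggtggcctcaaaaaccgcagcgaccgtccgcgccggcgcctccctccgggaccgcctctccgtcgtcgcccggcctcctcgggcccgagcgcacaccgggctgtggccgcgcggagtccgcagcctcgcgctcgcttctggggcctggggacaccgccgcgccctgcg
Gstp1: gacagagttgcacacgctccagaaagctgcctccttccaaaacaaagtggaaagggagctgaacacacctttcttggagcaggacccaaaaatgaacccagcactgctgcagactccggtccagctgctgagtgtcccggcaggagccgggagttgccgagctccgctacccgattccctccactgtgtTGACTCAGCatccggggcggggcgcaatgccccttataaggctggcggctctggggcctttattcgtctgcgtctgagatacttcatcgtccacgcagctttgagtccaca
Txnrd1: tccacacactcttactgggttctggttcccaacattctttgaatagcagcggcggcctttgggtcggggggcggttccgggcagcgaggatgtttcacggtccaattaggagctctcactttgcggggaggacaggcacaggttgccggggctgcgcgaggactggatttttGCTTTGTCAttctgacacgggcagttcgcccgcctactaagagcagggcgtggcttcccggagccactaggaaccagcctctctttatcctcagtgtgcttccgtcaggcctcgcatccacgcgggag
In Gpx2, Gclm and Txnrd1 the capitals read as the reverse complement of the pattern, and in Gstp1 as the pattern itself. The core of the aryl hydrocarbon receptor element, GCGTG on either strand, was in the windows of 17 of the 31 genes (54.8%), in 46.9% of the array genes and in 32.4% of all genes. These matches describe letters in the windows, and binding was not measured.

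The arrays had median log2 signals of 6.87 to 7.23. Urothelial identity was checked on uroplakins: Upk1b read 13.02 to 14.11 and Upk3a 13.46 to 14.16 over the 9 arrays, and the summed signal of 7 umbrella cell markers was 72.8% to 97.9% of the normal mean in tumors and 49.7% to 95.9% in adjacent tissue. Of those 7, 2 were lower in tumors (Upk1a and Krt20) and 2 in adjacent tissue (Krt18 and Krt20), beside 9.95% and 11.5% of all genes. The median log2 difference of the 7 was -0.49 and -0.83. Tumor 1 stood apart from the other tumors in smooth muscle: the sum of 10 smooth muscle markers was 70.0% of the normal mean there, against 2.62% and 2.99% in tumors 2 and 3. It was 34.3%, 10.4% and 4.54% in adjacent samples 1, 2 and 3 and 97.3% to 103.7% in normal bladders. The sum of 6 basal and squamous markers was 1479% to 1917% of the normal mean in tumors and 1529% to 2862% in adjacent tissue, so the tissue labelled adjacent normal also differed from normal bladder. The part of these cell types in the differences that follow was not tested. In these bulk samples, fewer cells of a type and less RNA per cell cannot be told apart.

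In tumors against normal bladder, 19 of the 40 defence genes were higher and 1 was lower at an adjusted p under 0.05 from limma, while 13.6% of all genes were higher and 9.95% were lower. The median log2 difference was 0.66 over the 40 genes and 0.05 over all 14217 genes. The rises were led by the peroxidase gene Gpx2, the cystine transporter gene Slc7a11, the aldo-keto reductase gene Akr1b8 and the heme oxygenase gene Hmox1, and the gene that fell was Gstt1, a glutathione transferase. In adjacent tissue against normal bladder, 17 genes were higher and 3, Gpx3, Sod3 and Gpx4, were lower, beside 13.3% and 11.5% of all genes. The median difference there was 0.54 over the 40 genes and 0.01 over all genes. Both comparisons use the same 3 normal arrays. Without normal array 1, 2 or 3, the 20 calls became 11, 11 and 10 in tumors and 13, 13 and 12 in adjacent tissue. With 3 arrays per group, each from a different rat, the p-values measure the spread between those arrays.

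**Figure D1:**
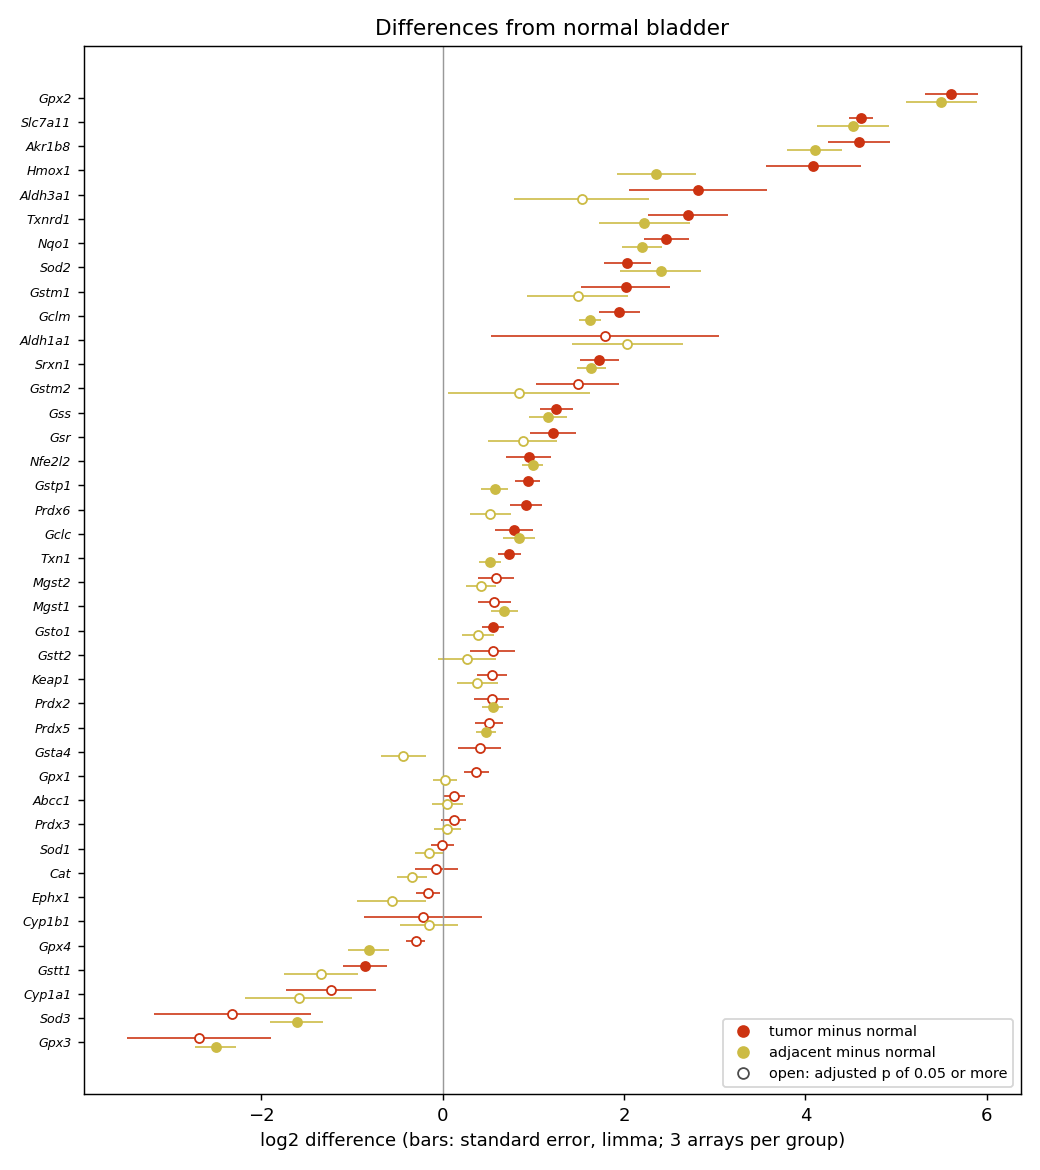
Log2 difference of tumors (red) and adjacent tissue (yellow) from normal bladder for the 40 defence genes, with bars of 1 standard error from limma and 3 arrays per group; filled points have an adjusted p under 0.05. Gpx2, Slc7a11 and Akr1b8 lie above 4 in both comparisons, and Gpx3 and Sod3 lie at the other end.

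Glutathione peroxidases use glutathione to reduce hydrogen peroxide and lipid peroxides, and the 4 measured differ in where they act. Gpx2, the peroxidase typical of gut and other epithelia, had log2 signals of 12.58, 13.80 and 13.20 in tumors 1 to 3, of 12.15, 13.19 and 13.91 in adjacent samples 1 to 3, and of 7.34, 7.69 and 7.71 in normal bladders 1 to 3. Every tumor and adjacent array lay far above every normal array, and tumors and adjacent tissue overlapped. Gpx2 rose by 5.61 ± 0.29 (SE) in tumors, or 48.8-fold (adjusted p = 0.000434), and by 5.50 ± 0.39 in adjacent tissue, or 45.3-fold (adjusted p = 0.000411). Tumor 1, which kept most of the muscle marker signal, was also above the normal arrays but had the lowest Gpx2 signal of the tumors. Adjacent sample 1, with the highest muscle sum of its group, was the lowest there.

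Gpx3, the secreted plasma peroxidase, had log2 signals of 10.17, 6.67 and 7.44 in the tumors, of 8.56, 8.52 and 7.75 in adjacent tissue and of 10.76, 10.81 and 10.77 in normal bladders. All arrays of tumor-bearing rats were below all normal arrays, but tumor 1 was close to them. Gpx3 fell by 2.50 ± 0.23 in adjacent tissue, to 17.6% of normal (adjusted p = 0.000796). In tumors the difference was -2.69 ± 0.80 and did not pass (adjusted p = 0.0586, and 0.0329 to 0.202 under the alternatives that kept every array), whereas without tumor 1 it was -3.72 ± 0.22 (adjusted p = 2.6e-05). Its order among the tumors was that of the smooth muscle marker sums given above, highest in tumor 1 and lowest in tumor 2. All 10 smooth muscle markers were lower in adjacent tissue and 4 of 10 in tumors, beside 11.5% and 9.95% of all genes. The sum of 8 fibroblast markers was 76.4%, 7.49% and 17.8% of the normal mean in tumors 1, 2 and 3. In adjacent samples 1, 2 and 3 the fibroblast sum was 63.7%, 51.2% and 21.4%. The part of these cell types in the Gpx3 values was not tested.

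Gpx4, which reduces lipid peroxides within membranes, had log2 signals of 12.21, 12.15 and 12.11 in tumors, of 11.16, 12.12 and 11.64 in adjacent tissue and of 12.42, 12.54 and 12.39 in normal bladders. It fell by 0.81 ± 0.23 in adjacent tissue (adjusted p = 0.041), a call lost without adjacent array 3 or without any 1 normal array (adjusted p up to 0.14) and after centring each array on its median, and in tumors its difference was -0.30 ± 0.10 (adjusted p = 0.0919). Gpx1, the widespread cytosolic peroxidase, did not pass in either comparison, with a difference of 0.37 ± 0.14 in tumors (adjusted p = 0.113) and of 0.03 ± 0.13 in adjacent tissue (adjusted p = 0.918).

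Superoxide dismutases turn superoxide into hydrogen peroxide, which catalase breaks down. Sod2, the mitochondrial enzyme, had log2 signals of 11.73, 12.07 and 12.80 in tumors, of 12.10, 11.85 and 13.77 in adjacent tissue and of 10.25, 10.22 and 10.02 in normal bladders. The groups of tumor-bearing rats lay above the normal arrays without overlap, with adjacent sample 3 the highest. Sod2 rose by 2.04 ± 0.26 in tumors, or 4.10-fold (adjusted p = 0.00511), and by 2.41 ± 0.45 in adjacent tissue, or 5.30-fold (adjusted p = 0.00935). Neutrophils use superoxide against microbes. The linear sum of 6 markers listed for them was 1366%, 4837% and 7481% of the normal mean in tumors 1, 2 and 3. It was 2443%, 2349% and 17640% in adjacent samples 1, 2 and 3, and the brightest markers weigh most in it. Of these markers, 4 were higher in each comparison, beside 13.6% and 13.3% of all genes, and Cxcr2 and Np4 were not called. Sod2 was highest in the sample with the highest sum in both groups. The basal and squamous sum was also highest in adjacent sample 3 (2862%), but among the tumors it was highest in tumor 2 (1917%). The part of neutrophils in the Sod2 values was not tested.

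Sod3, the dismutase secreted into the matrix, had log2 signals of 8.87, 4.91 and 6.95 in tumors, of 7.05, 8.24 and 7.56 in adjacent tissue and of 9.16, 9.33 and 9.19 in normal bladders. The value of tumor 2 is the dim one among the 360. Sod3 fell by 1.61 ± 0.29 in adjacent tissue, to 32.7% of normal (adjusted p = 0.00884). That call was lost in 1 fit of all 9 arrays (adjusted p = 0.204) and by the study's two-group test of means (adjusted p = 0.0755). In tumors the difference was -2.32 ± 0.87 (adjusted p = 0.11) and passed only without tumor 1, at -3.30 ± 0.52 (adjusted p = 0.00261), and tumor 1, with the highest muscle and fibroblast sums of the tumors, had the highest value. Among the adjacent samples the order was not the same: sample 1, with the highest of both sums, had the lowest Sod3 signal. Sod1, the cytosolic dismutase, differed from normal by 0.00 ± 0.13 in tumors and by -0.15 ± 0.15 in adjacent tissue, and the peroxisomal enzyme catalase (Cat) by -0.07 ± 0.24 and -0.34 ± 0.17. None of these 4 differences passed (adjusted p = 0.204 to 0.993).

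**Figure D2:**
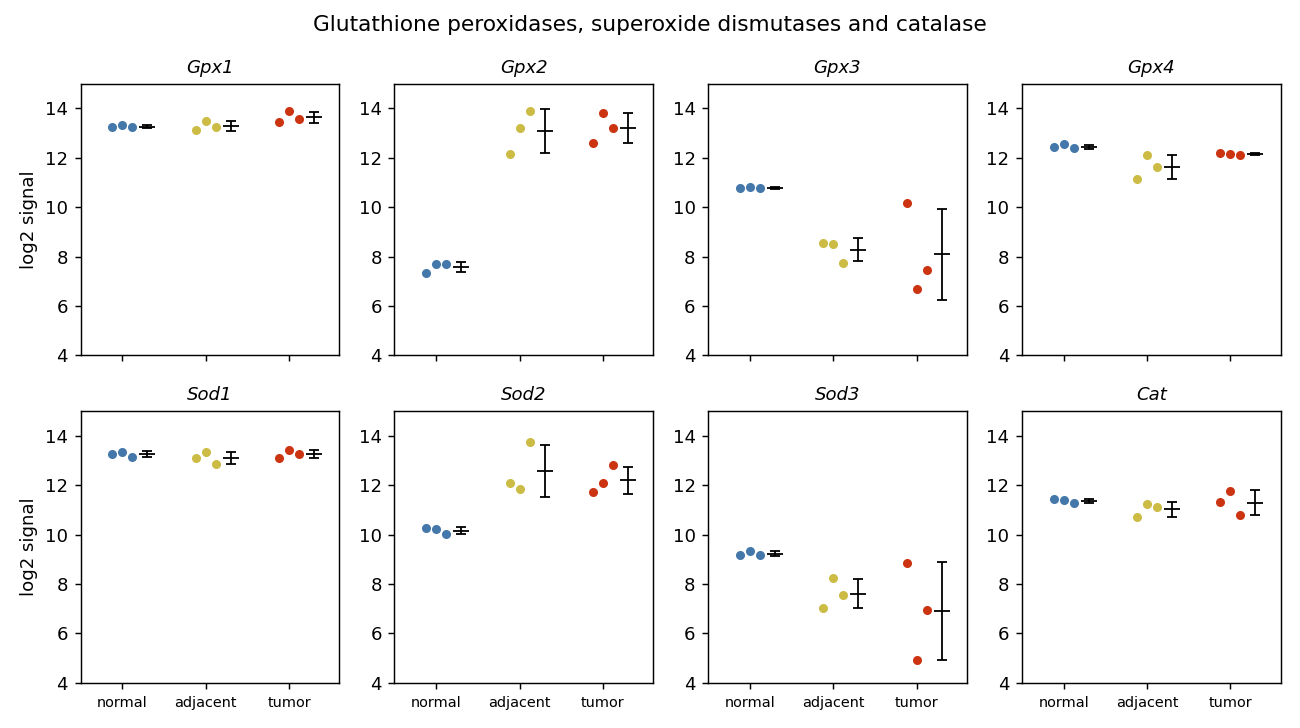
Log2 signal of the 4 glutathione peroxidase genes, the 3 superoxide dismutase genes and catalase in normal bladder (blue), adjacent tissue (yellow) and tumors (red), with a point for each array and the mean and SD of 3 arrays in black. Gpx2 and Sod2 lie above normal, and Gpx3 and Sod3 below it, with tumor 1 (the first red point) nearest to the normal arrays in Gpx3 and Sod3.

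**Figure D3:**
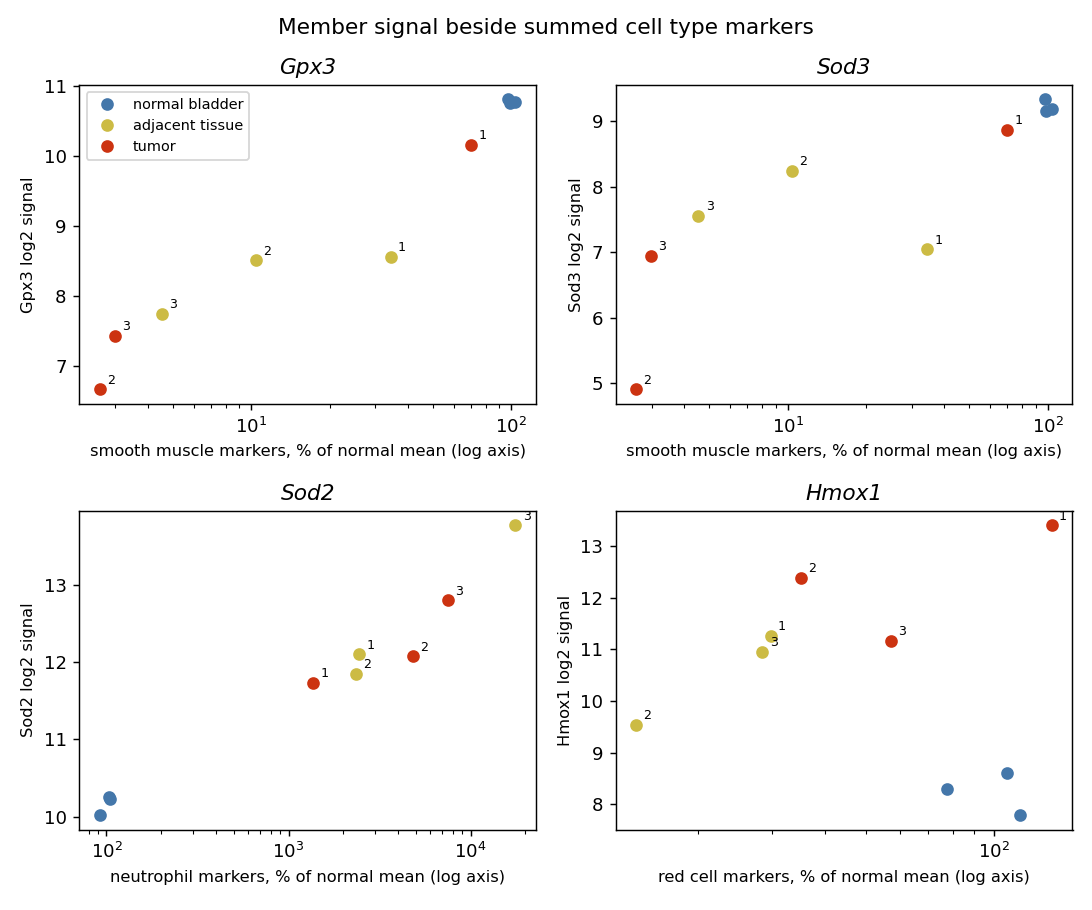
Log2 signal of Gpx3 and Sod3 against the sum of 10 smooth muscle markers, of Sod2 against 6 neutrophil markers and of Hmox1 against 5 red cell markers, each sum as a percent of the mean of normal bladders on a log axis; points are arrays, with tumor and adjacent samples numbered. Tumor 1 lies nearest to the normal arrays in both panels of smooth muscle markers, and adjacent sample 3 is highest in both Sod2 and neutrophil markers.

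Thioredoxin carries electrons from NADPH, passed on by thioredoxin reductase, to the peroxiredoxins, which reduce peroxides, and sulfiredoxin repairs peroxiredoxins that have been over-oxidised. Of the 7 genes of this system, 4 were higher in tumors and 5 in adjacent tissue, beside 13.6% and 13.3% of all genes. Txnrd1, the cytosolic thioredoxin reductase, had log2 signals of 11.62, 13.39 and 11.69 in tumors, of 11.06, 11.08 and 13.11 in adjacent tissue and of 9.44, 9.66 and 9.49 in normal bladders. All of the tumor and adjacent arrays were above the normal arrays, and tumor 2 and adjacent sample 3 were well above the others of their group. Txnrd1 rose by 2.71 ± 0.45 in tumors, or 6.52-fold (adjusted p = 0.0101), and by 2.22 ± 0.50 in adjacent tissue (adjusted p = 0.0197), and its second probe set gave 3.03 ± 0.65 and 2.70 ± 0.62. The tumor call was lost without normal array 1 or 3 and the adjacent call without any 1 normal array (adjusted p up to 0.0505 and 0.0766).

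Srxn1, which encodes sulfiredoxin, had log2 signals of 10.74, 10.78 and 10.12 in tumors, of 10.33, 10.50 and 10.54 in adjacent tissue and of 9.07, 8.64 and 8.75 in normal bladders. It rose by 1.73 ± 0.22 in tumors (adjusted p = 0.00482) and by 1.64 ± 0.16 in adjacent tissue (adjusted p = 0.00102), with no overlap with the normal arrays. Its other two probe sets gave differences of 1.40 ± 0.43 and -1.30 ± 1.12 in tumors, the last being dim on every array, and the mean over its probe sets did not pass (adjusted p = 0.392 in tumors and 0.386 in adjacent tissue). Thioredoxin itself (Txn1) rose by 0.74 ± 0.13 in tumors (adjusted p = 0.0116) and 0.52 ± 0.12 in adjacent tissue (adjusted p = 0.0219). Prdx6, which also has phospholipase activity, rose in tumors by 0.92 ± 0.18 (adjusted p = 0.0157) and differed by 0.52 ± 0.23 in adjacent tissue (adjusted p = 0.155). Cytosolic Prdx2 and Prdx5, which is also found in mitochondria and peroxisomes, rose in adjacent tissue by 0.55 ± 0.12 and 0.48 ± 0.11, and their differences in tumors, 0.54 ± 0.19 and 0.52 ± 0.15, did not pass (adjusted p = 0.0981 and 0.0595). Mitochondrial Prdx3 did not pass in either, at 0.12 ± 0.14 and 0.05 ± 0.15. The calls of Txn1, Prdx6, Prdx2 and Prdx5 were lost without any 1 normal array (adjusted p up to 0.0609, 0.0705, 0.0818 and 0.0933, and 0.0891 for Txn1 in adjacent tissue, where leaving out adjacent array 2 also ended it).

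Glutathione is made from cystine, which enters the cell through the transporter xCT (Slc7a11), by glutamate-cysteine ligase (catalytic subunit Gclc, modifier subunit Gclm) and glutathione synthetase (Gss), and is kept reduced by glutathione reductase (Gsr). All 5 genes were higher in tumors and 4 of 5 in adjacent tissue, beside 13.6% and 13.3% of all genes. Slc7a11 had log2 signals of 12.66, 12.38 and 12.36 in tumors, of 13.12, 11.37 and 12.65 in adjacent tissue and of 7.83, 7.96 and 7.78 in normal bladders. The tumors were close together and all arrays of tumor-bearing rats were far above normal bladder. Slc7a11 rose by 4.61 ± 0.13 in tumors, or 24.4-fold (adjusted p = 3.93e-05), and by 4.52 ± 0.39 in adjacent tissue, or 23.0-fold (adjusted p = 0.000731).

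Gclm had log2 signals of 11.21, 11.91 and 11.02 in tumors, of 11.13, 10.95 and 11.10 in adjacent tissue and of 9.46, 9.42 and 9.41 in normal bladders. It rose by 1.95 ± 0.23 (adjusted p = 0.00397) and 1.63 ± 0.12 (adjusted p = 0.000497), again without overlap. The catalytic subunit Gclc rose by 0.79 ± 0.21 in tumors (adjusted p = 0.0426) and 0.84 ± 0.18 in adjacent tissue (adjusted p = 0.0143), and its second probe set, at 0.86 ± 0.30 and 0.58 ± 0.38, did not pass. Gss had log2 signals of 9.94, 9.44 and 9.78 in tumors, of 9.63, 9.28 and 9.97 in adjacent tissue and of 8.31, 8.43 and 8.65 in normal bladders. It rose by 1.25 ± 0.18 in tumors (adjusted p = 0.00676) and 1.17 ± 0.21 in adjacent tissue (adjusted p = 0.00833). Gsr rose by 1.22 ± 0.25 in tumors (adjusted p = 0.02) and differed by 0.88 ± 0.38 in adjacent tissue (adjusted p = 0.159), where adjacent sample 1 read 8.29, within the normal range. The Gclc and Gsr calls in tumors were lost without any 1 normal array (adjusted p up to 0.142 and 0.0833), Gsr also without tumor 3, and the Gclc call in adjacent tissue without normal array 2 or 3 (adjusted p up to 0.071).

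Glutathione transferases couple glutathione to electrophiles so that they can be exported. Related enzymes of the membrane (Mgst1, Mgst2) and the omega class (Gsto1) also catalyse reductions. Of 9 measured, 3 were higher and 1 was lower in tumors, beside 13.6% and 9.95% of all genes. In adjacent tissue 2 were higher, beside 13.3% of all genes. Gstm1, a mu class enzyme, had log2 signals of 14.06, 14.64 and 12.64 in tumors, of 11.81, 13.85 and 14.11 in adjacent tissue and of 12.20, 11.74 and 11.35 in normal bladders. All tumors were above the normal bladders, whereas adjacent sample 1 lay among them. Gstm1 rose by 2.02 ± 0.49 in tumors, or 4.05-fold (adjusted p = 0.0315), and differed by 1.49 ± 0.56 in adjacent tissue (adjusted p = 0.107). That rise no longer passed when tumor 2 or any 1 normal array was left out (adjusted p up to 0.116). Gstm2 of the same class differed by 1.49 ± 0.45 in tumors (adjusted p = 0.0636) and ranged from 7.16 to 10.59 over the adjacent samples, and probes for such similar genes can bind RNA of both.

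Gstp1, the pi class enzyme used as a marker of early lesions in rat liver carcinogenesis, was already bright in normal bladder, at 13.00 to 13.26. It read 14.00, 14.28 and 14.02 in tumors and 13.48, 13.91 and 13.81 in adjacent tissue, and rose by 0.94 ± 0.13 (adjusted p = 0.00706) and 0.57 ± 0.15 (adjusted p = 0.0334). Gsto1 rose by 0.56 ± 0.12 in tumors (adjusted p = 0.0248) and Mgst1 by 0.68 ± 0.15 in adjacent tissue (adjusted p = 0.0168). Gstt1, a theta class enzyme, had log2 signals of 7.60, 8.05 and 8.51 in tumors, of 6.55, 8.17 and 7.99 in adjacent tissue and of 8.77, 9.01 and 8.95 in normal bladders. No tumor or adjacent array reached the normal range. Gstt1 fell by 0.86 ± 0.24 in tumors, to 55.1% of normal (adjusted p = 0.0498), and differed by -1.34 ± 0.40 in adjacent tissue (adjusted p = 0.0549). For Gstt1 the fall no longer passed when tumor 2 or any 1 normal array was left out (adjusted p up to 0.159) and after quantile normalization or median centring. The Gsto1 rise ended when tumor 2, tumor 3 or any 1 normal array was left out (adjusted p up to 0.1), the adjacent Gstp1 call without adjacent array 2 or 3 or any 1 normal array (adjusted p up to 0.128), and the Mgst1 call without normal array 1 or 3 (adjusted p up to 0.081). Gstt2, Gsta4 and Mgst2 passed in neither comparison, with differences of 0.55, 0.41 and 0.58 in tumors and of 0.27, -0.43 and 0.42 in adjacent tissue.

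Of the 5 enzymes of quinones, aldehydes and heme, 4 were higher in tumors and 3 in adjacent tissue, beside 13.6% and 13.3% of all genes. Akr1b8, an aldo-keto reductase that reduces reactive aldehydes, had log2 signals of 14.45, 14.77 and 13.98 in tumors, of 13.67, 14.06 and 14.02 in adjacent tissue and of 9.37, 10.57 and 9.49 in normal bladders. The groups of tumor-bearing rats were bright and close together, and every normal array was far below them. Akr1b8 rose by 4.59 ± 0.34 in tumors, or 24.1-fold (adjusted p = 0.00156), and by 4.10 ± 0.30 in adjacent tissue, or 17.2-fold (adjusted p = 0.00049). Rats have other genes much like Akr1b8, so cross-binding of its probes is possible.

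Nqo1, the quinone reductase that is a standard readout of Nrf2, had log2 signals of 14.10, 14.53 and 14.10 in tumors, of 13.92, 14.09 and 13.93 in adjacent tissue and of 12.29, 11.39 and 11.65 in normal bladders. It rose by 2.47 ± 0.25 in tumors, or 5.53-fold (adjusted p = 0.00287), and by 2.20 ± 0.22 in adjacent tissue, or 4.59-fold (adjusted p = 0.00105). Each of the tumors was above each adjacent sample, though narrowly. Hmox1, the inducible enzyme that opens the heme ring, had log2 signals of 13.40, 12.39 and 11.17 in tumors, of 11.27, 9.54 and 10.96 in adjacent tissue and of 8.29, 7.79 and 8.61 in normal bladders. The tumors were spread over more than 2 units, and none of the arrays of tumor-bearing rats overlapped normal bladder. Hmox1 rose by 4.09 ± 0.52 in tumors, or 17.0-fold (adjusted p = 0.00519), and by 2.36 ± 0.43 in adjacent tissue, or 5.12-fold (adjusted p = 0.00919). Macrophages express Hmox1 while clearing red cells. Their marker sum over 8 genes was 185.4%, 174.5% and 206.2% of the normal mean in tumors 1, 2 and 3. It was 195.4%, 178.4% and 340.5% in adjacent samples 1, 2 and 3. Tumor 3, with the highest of these sums among the tumors, had the lowest Hmox1 signal of them. Adjacent sample 3, with the highest sum of its group, was below sample 1 in Hmox1, and sample 2 was lowest in both. The sum of 5 red cell markers was 137.2% of the normal mean in tumor 1, 35.1% and 57.3% in tumors 2 and 3 and 14.3% to 29.8% in adjacent tissue. The part of these cells in the Hmox1 values was not tested.

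Aldh3a1, which oxidises aldehydes and is abundant in cornea and other exposed epithelia, had log2 signals of 11.54, 12.82 and 11.65 in tumors, of 9.80, 11.10 and 11.24 in adjacent tissue and of 10.71, 9.32 and 7.52 in normal bladders. Normal bladders varied more in this gene than in any other of the 40, with an SD of 1.60. It rose by 2.82 ± 0.76 in tumors (adjusted p = 0.0437), which ended when tumor 2 or 3 or normal array 2 or 3 was left out (adjusted p up to 0.121), and differed by 1.53 ± 0.75 in adjacent tissue (adjusted p = 0.205). Aldh1a1, which makes retinoic acid, ranged from 7.91 to 12.86 over the tumors and passed in neither comparison (adjusted p = 0.377 and 0.0529).

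**Figure D4:**
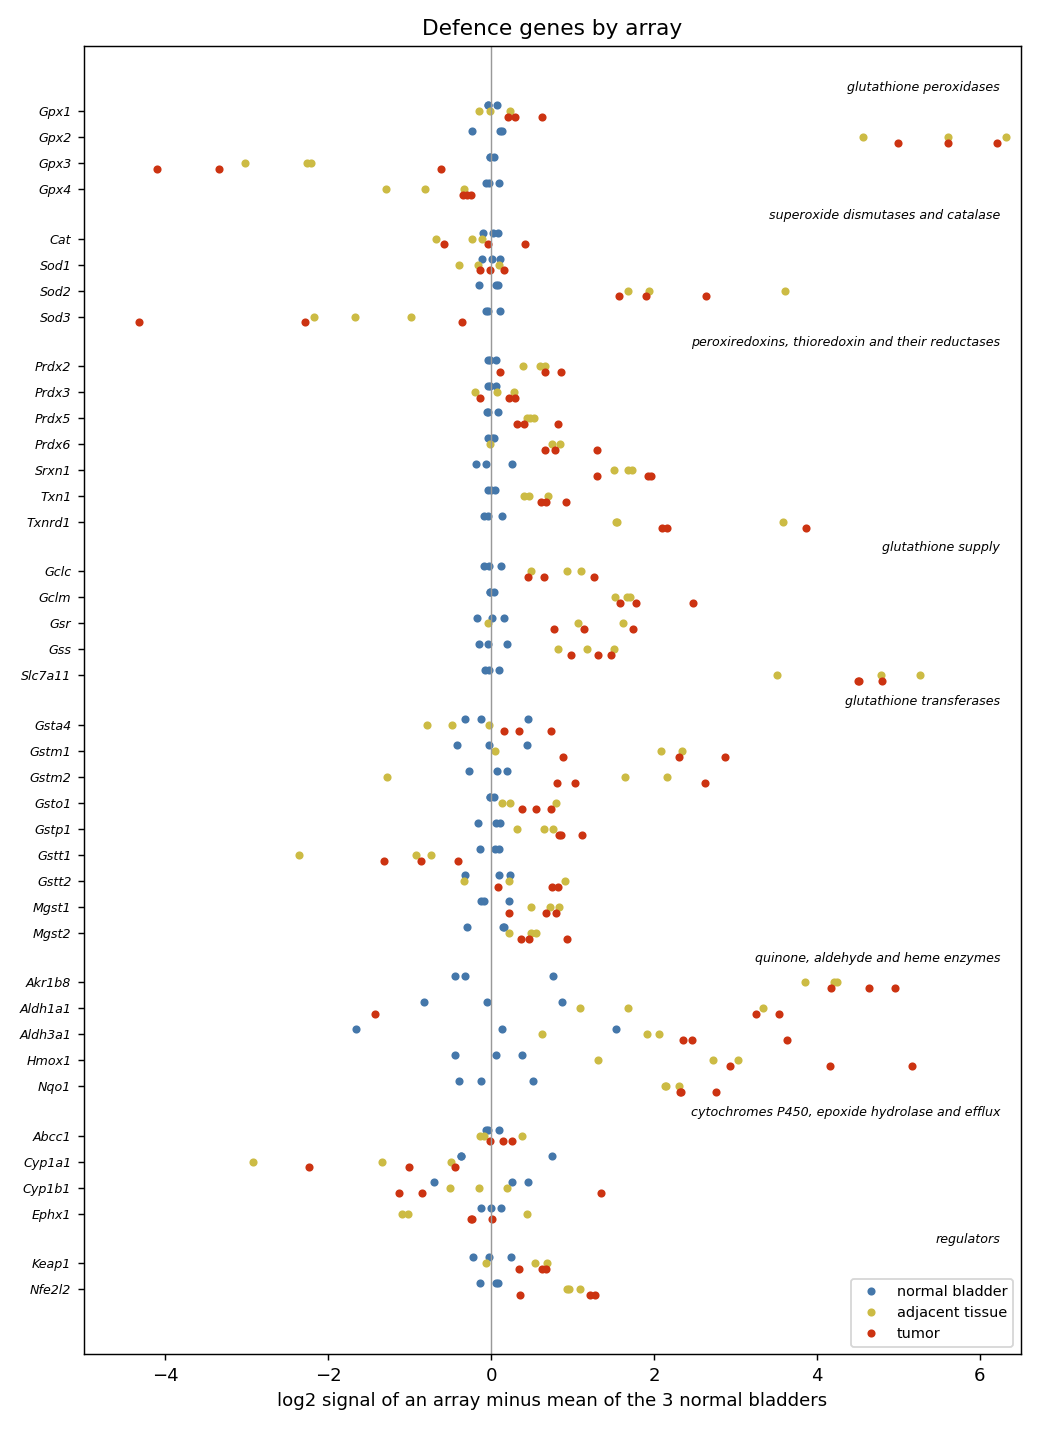
Log2 signal of each array minus the mean of the 3 normal bladders, for the 40 defence genes in order of their role; blue points are normal bladders, yellow adjacent tissue and red tumors. Red and yellow points of Gpx2, Slc7a11, Akr1b8 and Nqo1 all lie right of the blue ones, those of Cyp1a1 lie left of them, and those of Cyp1b1, Ephx1 and Abcc1 overlap them.

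No call was made in either comparison among the 4 genes of foreign compound oxidation, epoxide hydrolysis and efflux. Of all genes, 13.6% were higher and 9.95% lower in tumors, and 13.3% and 11.5% in adjacent tissue. Cyp1a1, the classical target of the aryl hydrocarbon receptor, had log2 signals of 7.60, 8.84 and 9.39 in tumors, of 9.35, 8.49 and 6.92 in adjacent tissue and of 10.58, 9.46 and 9.47 in normal bladders. Its arrays did not overlap the normal ones, all lying below them, but the differences of -1.23 ± 0.50 and -1.59 ± 0.59 did not pass (adjusted p = 0.134 and 0.104). Cyp1b1, a related enzyme, differed by -0.21 ± 0.65 and -0.15 ± 0.32, and the epoxide hydrolase gene Ephx1 by -0.16 ± 0.13 and -0.56 ± 0.38. The glutathione conjugate exporter Abcc1 differed by 0.13 ± 0.12 and 0.05 ± 0.17. The adjusted p of these 3 genes ranged from 0.362 to 0.872.

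The regulator Nfe2l2 had log2 signals of 12.68, 13.59 and 13.54 in tumors, of 13.26, 13.42 and 13.28 in adjacent tissue and of 12.41, 12.38 and 12.18 in normal bladders. All 6 arrays of tumor-bearing rats were above the normal arrays, tumor 1 by the least. Nfe2l2 rose by 0.95 ± 0.24 in tumors (adjusted p = 0.0387) and by 0.99 ± 0.12 in adjacent tissue (adjusted p = 0.00192). The rise in tumors no longer passed when tumor 2, tumor 3 or any 1 normal array was left out (adjusted p up to 0.132), and that in adjacent tissue was kept without each of the 6 arrays. Keap1, which encodes the inhibitor of Nrf2, had log2 signals of 9.95, 9.91 and 9.63 in tumors, of 9.96, 9.81 and 9.22 in adjacent tissue and of 9.53, 9.25 and 9.06 in normal bladders. Its differences of 0.55 ± 0.17 and 0.38 ± 0.23 did not pass (adjusted p = 0.0632 and 0.296). The difference in tumors did pass after median centring (0.75, adjusted p = 0.0278) and with the filter at the 40th percentile (adjusted p = 0.0487). That in adjacent tissue passed without adjacent array 3 (0.61, adjusted p = 0.0468), and neither passed under any other alternative.

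The question of whether tumors differed from the tissue beside them gave no call. At an adjusted p under 0.05 from limma, 0 of the 40 genes were higher and 0 were lower in tumors than in adjacent tissue, and this held for all 14217 genes (0.0% higher and 0.0% lower). Without adjustment, 3 of the 40 genes and 376 of all genes had a p under 0.05. With same-numbered tumor and adjacent samples taken as pairs (replicate block), 7 of the 40 did, and 0 passed after adjustment. Without tumor 2 and without the block, 1 of the 40 had a p under 0.05. All genes were not counted under these settings, so 7 and 1 cannot be set against a share of all genes. The study's two-group test of means also called 0 of the 40 after adjustment. The 3 genes with all arrays and no block were Hmox1, Aldh3a1 and Gsta4, with differences of 1.73 ± 0.62, 1.29 ± 0.47 and 0.84 ± 0.24. For Aldh3a1, Gsta4, Nqo1 and Gstp1 the tumors were all above the adjacent samples, as they were in 4.1% of all genes. Nqo1 and Gstp1 differed by 0.27 ± 0.17 and 0.36 ± 0.18. Over the 40 genes, 31 differences were positive and 9 negative, from -0.71 ± 0.90 in Sod3 to that of Hmox1, with a median of 0.19 beside 0.02 over all genes. In the genes with the largest rises over normal bladder, the differences were 0.11 ± 0.47 in Gpx2, 0.09 ± 0.41 in Slc7a11 and 0.49 ± 0.23 in Akr1b8.

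Spread within a group was larger in both tissues of tumor-bearing rats. The median SD of the 40 genes was 0.39 in tumors, 0.37 in adjacent tissue and 0.13 in normal bladders, beside 0.34, 0.36 and 0.17 over all genes. Tumor 2 was the highest of the tumors in 24 of the 40 genes (60.0%, against 31.8% of all genes), and adjacent sample 1 was the lowest of its group in 22 (55.0%, against 33.5%). These counts describe the arrays and were not tested.

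Other genes of the same pathways were read from lists that do not hold any of the 40. Of 33 measured genes of the Nrf2 and glutathione systems, 14 were higher and 4 were lower in each comparison with normal bladder. Among all genes, 13.6% were higher and 9.95% lower in tumors, and 13.3% and 11.5% in adjacent tissue. The list had a median difference of 0.71 in tumors and 0.40 in adjacent tissue, beside 0.05 and 0.01 over all genes. Ggt1, which splits extracellular glutathione, read 7.45, 9.73 and 10.46 in tumors and was dim in all normal bladders. Its tumor mean was at least 11.9-fold higher than normal, with the limit of 50 in place of the dim values (adjusted p = 0.00563). Ptgr1, a reductase of aldehydes and prostaglandins, rose by 2.66 ± 0.27 (adjusted p = 0.00291). The lowest of that list were Gpx8, a peroxidase of the endoplasmic reticulum, which fell by 1.83 ± 0.43 (adjusted p = 0.0282), and Nqo2, a quinone reductase, which fell by 1.70 ± 0.41 (adjusted p = 0.0306).

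Of 41 other measured genes of foreign compound metabolism, 15 were higher and 9 lower in tumors, and 10 were higher and 6 lower in adjacent tissue. The shares over all genes were 13.6% higher and 9.95% lower in tumors, and 13.3% and 11.5% in adjacent tissue. Aldh1a3, another retinaldehyde-oxidising enzyme, rose by 4.50 ± 0.49 in tumors (adjusted p = 0.0034). Akr7a3, an aldehyde reductase, was dim in all normal bladders and at least 3.79-fold higher in tumors (adjusted p = 0.0496). The sulfotransferase gene Sult1a1 fell by 4.46 ± 0.55 (adjusted p = 0.00469), and Fmo2, a flavin-containing monooxygenase, fell by 4.06 ± 0.39 (adjusted p = 0.00272). The median difference of this list was 0.66 in tumors and 0.31 in adjacent tissue, beside 0.05 and 0.01 over all genes. Neither list held a call between tumors and adjacent tissue.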

How the data were processed

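The authors hybridised RNA of each tissue to an Affymetrix rat array after 3′ in vitro transcription and summarised probe sets with MAS5, the deposited values being log2 signals. Their trimmed mean linear signal lay between 498.0 and 498.8 on each array. Scanner files were not used here, and neither labels nor table gave a batch or scan date.

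Probe sets of 57 array controls were left out, and the other 31042 were tested for each pair of groups by itself with limma 3.58.1 in R 4.3.3 (lmFit, eBayes with a mean-variance trend), two-sided, with Benjamini-Hochberg adjustment over all of them and a threshold of 0.05. The script was tested on simulated data. The annotation gave 1 symbol to 20826 probe sets, several to 436 and none to 9780, and the last 2 kinds name no gene. Old annotations and related genes limit what a probe set stands for. With all arrays of the dimmer group under 50, a fold is a lower bound against 50.

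Genes given array by array were those with the 10 largest rises and falls per comparison among calls without overlap, plus Nfe2l2 and Keap1. From each list of other genes, the 2 highest and 2 lowest calls in tumors were named. Gsto1, Cyp1a1 and other genes outside that rule were described after their values were seen. The genes and lists were chosen with earlier results of these data known. Promoters came from RefSeq (GRCr8). Alternatives were quantile normalization, median centring, a filter at the 40th percentile, 50 added to the signal, no variance trend, 1 fit of all 9 arrays, the methods' test of means, averaging the probe sets of a gene, a replicate block, and leaving out each array. With no depth in such values, the number of arrays limits the precision.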

Additional observations from a re-analysis of the deposited data

How the results depend on the processing

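Of the 40 genes, 20 were called in tumors against normal bladder and 20 in adjacent tissue against normal bladder. Without a variance trend these counts were 11 and 12, and by the methods' test of means after adjustment 9 and 10. Leaving out 1 array gave 10 to 29 calls in tumors and 12 to 26 in adjacent tissue, the lowest without normal array 3 and the highest without tumor 1 and adjacent array 1. The other alternatives gave 16 to 23 and 17 to 22. Median centring moved the median difference over all probe sets from -0.05 to 0.15 in tumors and from -0.09 to 0.115 in adjacent tissue. With the replicate number as a block (replicate block), 16 and 19 were called, and 0 between tumors and adjacent tissue, as under each alternative run. The design calls tumor and adjacent samples paired, but no label ties a number to a rat. Deviations of same-numbered samples correlated at 0.2404, 0.0443 and 0.1373, and those of differently numbered samples at -0.2121 to 0.1063. Tumor 2 correlated more with adjacent sample 3 (0.1063) than with adjacent sample 2 (0.0443). Between tumors and adjacent tissue, Nfe2l2 differed by -0.05, and by -0.21 to 0.246 with an array left out (0.002 without adjacent array 2), and Keap1 by 0.17 and -0.059 to 0.31, the lowest without adjacent array 3. The cause of these shifts was not tested. Dim signals vary most, and 1 value of the 40 genes was dim.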
